A study of Mus musculus with 24 samples.

Results

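The comparison was between testes of mice kept at the mid dose rate of γ-rays, 0.65 µGy/min (arrays M125, M129 and M130), and testes of unirradiated control mice (arrays C102, C109 and C110). These are 6 of the 24 arrays of the study and 6 of its 12 testis arrays. All 6 were chosen by their labels, not by any measured value. The study exposed mice to a 137Cs source for 485 days, 22 h per day, at a low (0.032 µGy/min), mid (0.65 µGy/min) or high (13 µGy/min) dose rate, for total doses of 21, 420 and 8000 mGy. Both organs were removed at the end of irradiation, with 3 arrays per dose rate and 3 of controls in each tissue. Each array read total RNA of whole tissue on Illumina Mouse-6 beads, where many beads carry each probe and the signal is their brightness. Strain and age of the mice are not given in the sources used here. The labels call the arrays biological replicates, and name no chip or hybridisation day for the testis arrays.

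The testis makes sperm in tubules in which spermatogonia divide, spermatocytes pass through meiosis, and round spermatids elongate and exchange histones for protamines. Sertoli cells support these stages inside the tubules, and Leydig cells between the tubules make testosterone. Dividing spermatogonia are known as the germ cells most sensitive to radiation, while spermatids withstand much more. In a whole testis, fewer cells of a type and less RNA per cell cannot be told apart.

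Each probe was followed as its signal after quantile normalization of the 12 testis arrays, and differences are given as log2 of mid over control. A probe was tested when it lay above its array's noise limit on at least 3 of the 12 arrays, the limit being taken from the signals below 0. This kept 15395 of 46133 probes, of which 4347 (28.2%) could be given a gene symbol, for 3955 genes in all. The noise limit was 94.5 to 147 signal units over the 12 arrays. Mid arrays had 13341 to 13987 probes above it and control arrays had 12853 to 14287. Prm2, the protamine that packs sperm DNA, was the brightest named probe, at 61759, 62449 and 60929 in mid testes and 62905, 60929 and 61759 in control testes. The 10 brightest named genes also included the ribosomal genes Rpl41 and Rps14, the ubiquitin gene Ubb, Ybx1, an RNA-binding protein abundant in male germ cells, and Ggnbp1. All 10 differed between mid and control by at most 0.0848 on the log2 scale. Quantile normalization gives equal ranks the same value on every array, so it limits how far the brightest probes can differ. Without normalization Prm2 was at +0.027 and Rpl41 at +0.033.

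Arrays of the mid group lay apart from the controls, but were not alone in doing so. The second principal component held 12.4% of the variance and placed mid arrays at −36.1, −24.5 and −11.4, against 12.4 to 13.2 for the control arrays. High dose rate array H132 lay among the mid arrays at −23.9. The 2 other high arrays, H134 and H139, stood apart on the first component, at 31.2 and 55.1. Mid array M130 stood apart on the fourth, at −47.2. Across probes, arrays correlated at r = 0.958 to 0.962 within mid, 0.964 to 0.966 within control and 0.956 to 0.960 between mid and control.

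**Figure D1:**
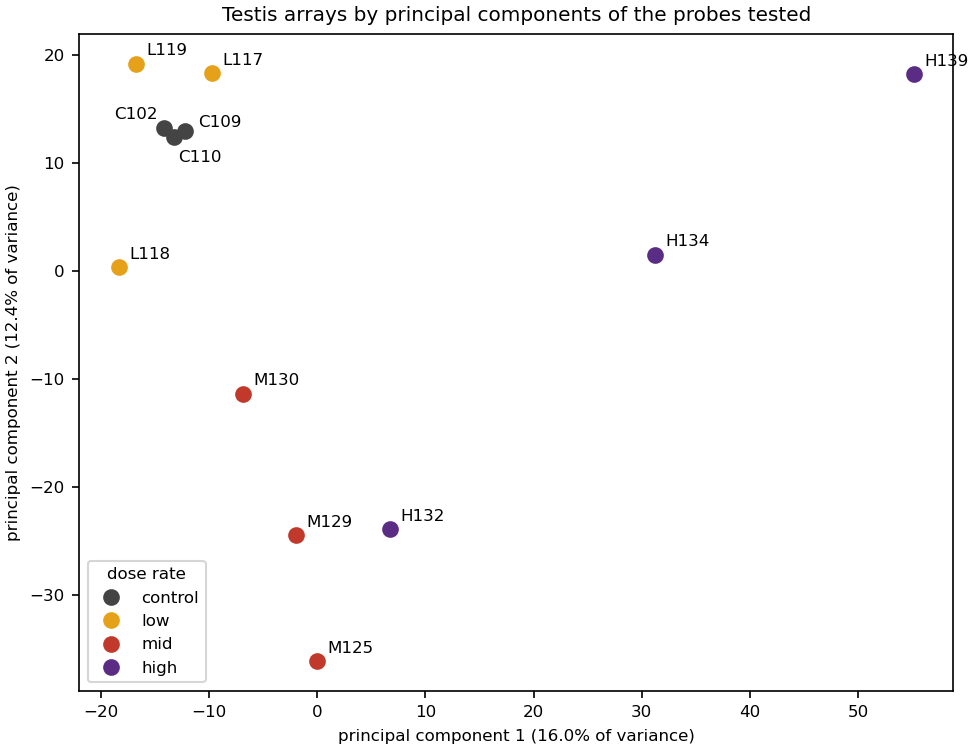
Position of the 12 testis arrays on the first and second principal components of the 15395 probes tested, with the share of variance on each axis and array names beside the points. The 3 mid arrays and high array H132 lie at −11.4 or below on the second component, and the 3 control arrays lie close together at 12.4 to 13.2.

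No probe passed an adjusted p of 0.05 (0 of 15395, 0%), and the smallest adjusted p was 0.0552. At an unadjusted p under 0.05 there were 1525 probes (9.91%), with 826 higher in mid testes (5.37%) and 699 lower (4.54%). At an adjusted p under 0.10 there were 50 probes (0.325%), of which 44 were higher (0.286%). The mid arrays all lay above the control arrays for 1417 probes (9.2%) and all below for 1462 (9.5%), so the groups did not overlap for 18.7% of probes. The median difference over all probes tested was −0.02, and 7077 probes were higher (46%). The result sits near the threshold: without high array H132, which is in neither of the groups compared, 24 probes passed, 23 of them higher. With a spread estimate that follows signal strength and resists outlying probes, 209 passed, 181 of them higher. The genes below are therefore given as differences with their errors, and none is called changed in the main fit.

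The 12 genes of lowest p in each direction are described by what they encode, an arrangement made after their values were seen and not tested as gene sets. They were taken from the probes whose groups did not overlap (18.7% of all tested), so their separation comes from that choice. Trip12, an E3 ubiquitin ligase that helps control the spread of ubiquitin marks at damaged DNA, had signals of 1114, 1001 and 1087 in mid testes and 442, 491 and 457 in control testes. Every mid array was above every control array, by a log2 difference of +1.20 ± 0.14 (SE, n = 3 each, adjusted p = 0.0552), or 2.3-fold. The other probes for Trip12 differed by +0.23 and +0.14, so the size rests on a single probe.

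Usp1 encodes the deubiquitinase that acts on FANCD2 and PCNA in DNA repair. Its signals were 3466, 3120.1 and 3325 in mid testes and 1937, 1944 and 2007 in control testes, a difference of +0.75 ± 0.13 (adjusted p = 0.0865). The ranges were far apart, yet a further Usp1 probe differed by −0.09. Dcun1d1 promotes attachment of NEDD8 to cullins, the scaffolds of a large class of ubiquitin ligases. It had 1591, 1476 and 1526 in mid testes and 824, 1080.3 and 977 in control testes (+0.68 ± 0.11, adjusted p = 0.0865).

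Taf9, a subunit of the general transcription factor TFIID, had 563, 562 and 664 in mid testes and 294, 324 and 262 in control testes (+1.02 ± 0.18, adjusted p = 0.0875). Cir1, a corepressor of the Notch pathway, had 1938, 1977 and 2121 in mid testes and 1437, 1336 and 1480.2 in control testes (+0.51 ± 0.08, adjusted p = 0.0865). Both were separated from control without overlap, as the choice of genes required. Ppp4r1, a regulatory subunit of protein phosphatase 4, had 1372, 1268 and 1269 in mid testes and 718, 759.7 and 713 in control testes. Its difference was +0.84 ± 0.15 (adjusted p = 0.0865), while another Ppp4r1 probe differed by −0.26.

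Dynll1, a light chain of cytoplasmic dynein, had 1411, 1346 and 1424 in mid testes and 848, 901 and 894 in control testes (+0.66 ± 0.11, adjusted p = 0.0865). Fasn, the fatty acid synthase, had 1482, 1378 and 1376 in mid testes and 898, 804 and 948 in control testes (+0.68 ± 0.12, adjusted p = 0.0865). Neither gene's arrays overlapped between the groups, which the choice of genes also required. Speer6-ps1 belongs to a family of closely similar testis genes, so its probe may also report relatives. Its signals were 1297, 1055 and 1144 in mid testes and 708, 727 and 631 in control testes (+0.76 ± 0.10, adjusted p = 0.0552).

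**Figure D2:**
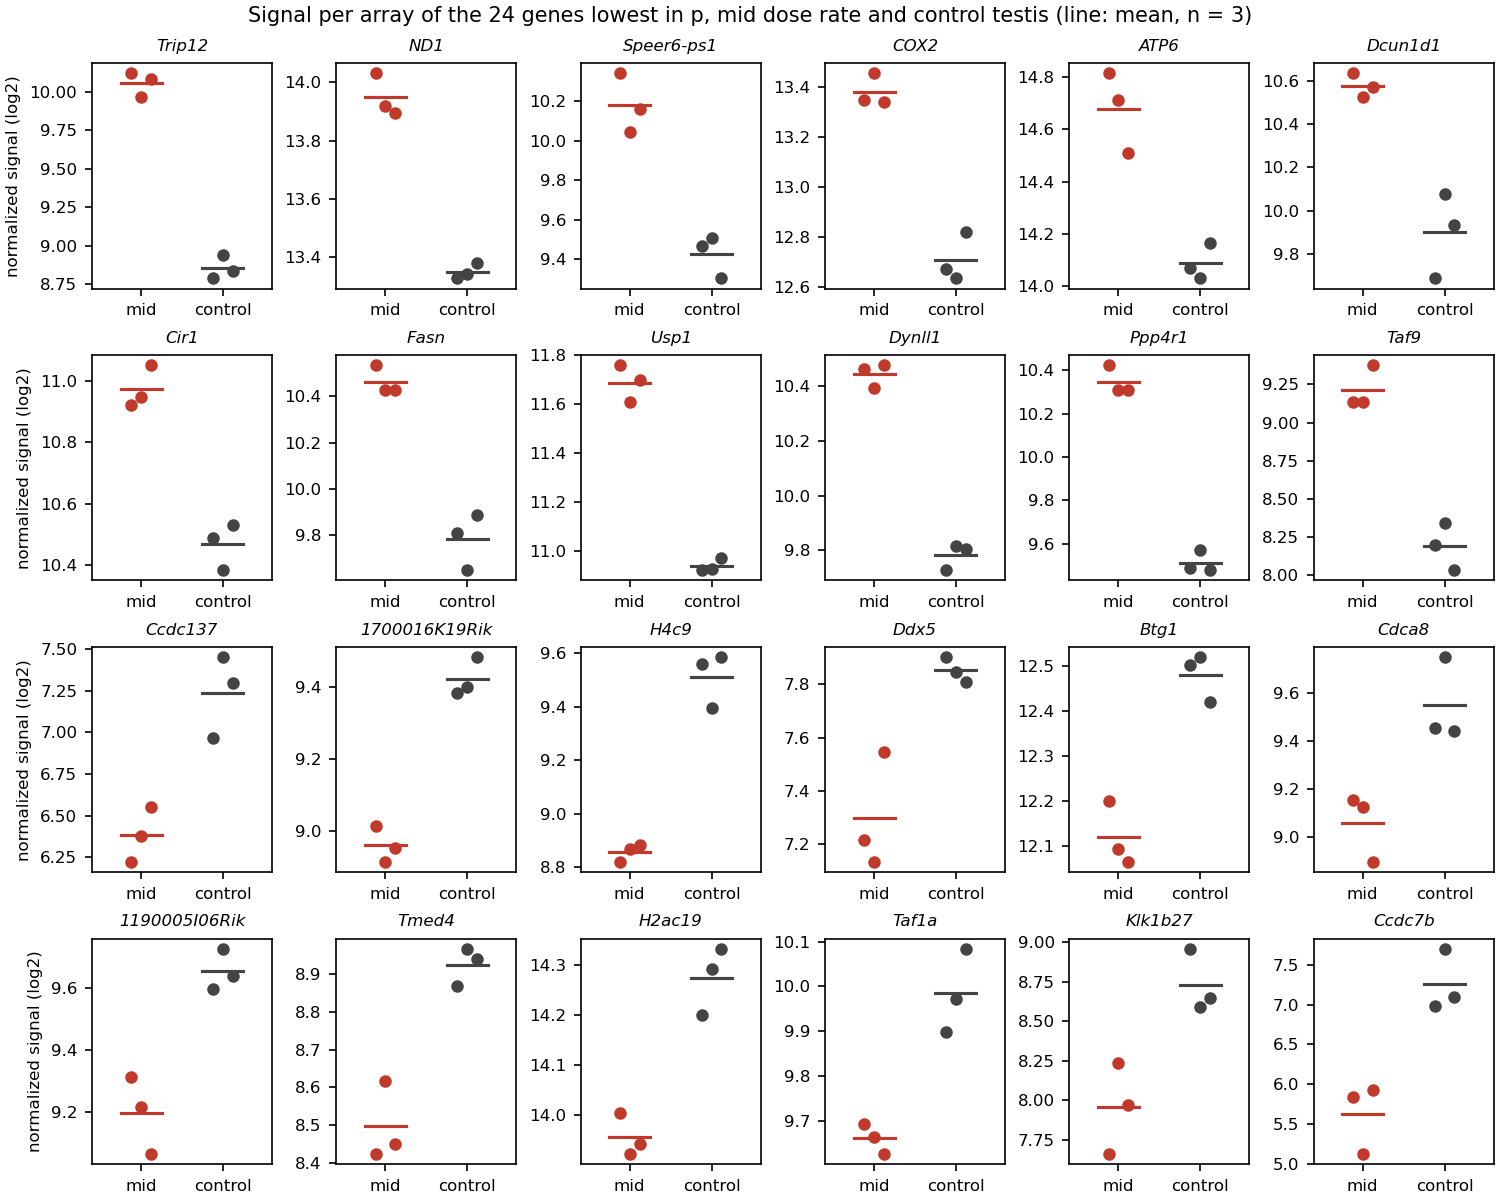
Normalized signal (log2 axis, a scale per panel) of the 24 genes chosen for the lowest p, 12 in each direction, with a point per array and a line at the mean of 3 arrays, mid left of control. The genes were chosen among those whose groups do not overlap, so the separation in every panel comes from that choice. Differences run from +1.20 for Trip12 to −0.78 for Klk1b27 among genes above the noise limit in both groups, and Ccdc137 and Ccdc7b, below that limit on the mid arrays, have only a bound.

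Mitochondria carry their own genome, which encodes core subunits of the respiratory chain, and most other subunits are encoded in the nucleus. The mitochondrially encoded genes were added as a list after their values were seen, so their count supports nothing by itself. Of 9 with a probe, 6 could be tested, and 5 of the 6 were higher in mid testes (median +0.38). ND1, a core subunit of complex I, had 16724, 15496 and 15243 in mid testes and 10287, 10399.5 and 10657 in control testes, a difference of +0.60 ± 0.07 (adjusted p = 0.0552). COX2, a catalytic subunit of complex IV, had 10413, 11212 and 10359 in mid testes and 6518, 6355 and 7232 in control testes (+0.67 ± 0.10, adjusted p = 0.0661). Both sets of ranges were wide apart. ATP6, a membrane subunit of the ATP synthase, had 28789.8, 26846 and 23318 in mid testes and 17178, 16724 and 18388 in control testes (+0.59 ± 0.09, adjusted p = 0.0865). The other members lay closer to control, with CYTB of complex III at +0.18 ± 0.09 and ND5 and ND4 of complex I at +0.04 and −0.01. The probes of 1 polycistronic genome thus differed unequally, and the signs of ND5 and ND4 turned under some of the alternative settings.

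Nuclear genes of complex I gave no common direction, and a few members carried large values. Complex I had 18 members tested, of which 8 were higher and 10 lower (median −0.03), with 5 higher and 2 lower at an unadjusted p under 0.05, against 5.37% and 4.54% of all probes tested. Ndufa6, an accessory subunit, had 1017, 966 and 1129.9 in mid testes and 556, 574 and 691 in control testes (+0.78 ± 0.18, adjusted p = 0.143). Ndufb5, an accessory subunit of the membrane arm, had 1429.5, 1349 and 1335 in mid testes and 841, 960.0 and 849 in control testes (+0.64 ± 0.15, adjusted p = 0.144). Both separated the groups, as did Ndufb9 (+0.67 ± 0.17, adjusted p = 0.187) and Ndufb4, which was above the noise limit on 1 of 3 control arrays (adjusted p = 0.24). All mid arrays lay above all control arrays for 5 of the 18 members, against 9.2% of all probes tested. For 4 members all mid arrays lay below, against 9.5%. Ndufb7 and Ndufa11, also accessory subunits, were lower by −0.49 ± 0.16 and −0.24 ± 0.09 (adjusted p = 0.349 and 0.409).

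Complexes II to V had 22 members tested, with 4 higher and 18 lower and a median of −0.09. At an unadjusted p under 0.05, 2 were higher and 0 lower, which is near the 9.91% of all probes tested that passed this limit in either direction. Uqcrb of complex III had 1111, 1135 and 1282 in mid testes and 699, 869 and 680.0 in control testes (+0.66 ± 0.16, adjusted p = 0.151). Cox6c of complex IV had 10334, 10095 and 9943 in mid testes and 7090.0, 7888 and 8075 in control testes (+0.40 ± 0.11, adjusted p = 0.216). For both genes the mid arrays lay above all control arrays, which held for 9.2% of all probes tested. For 6 of the 22 members all mid arrays lay below all control arrays, against 9.5% of all probes tested.

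**Figure D3:**
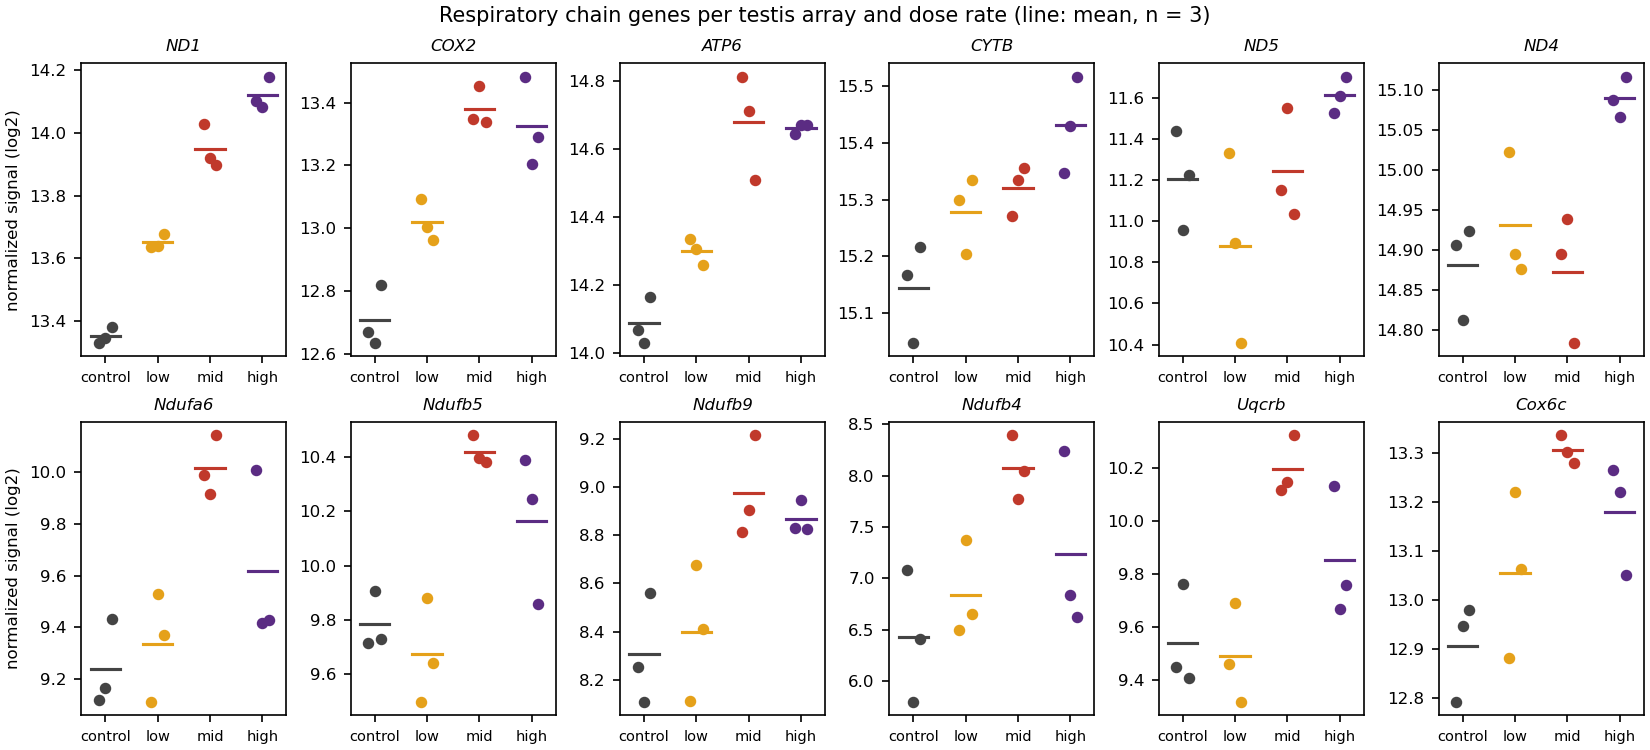
Normalized signal (log2 axis, a scale per panel) of 6 mitochondrially encoded genes (upper row) and 6 nuclear respiratory chain genes (lower row) on each testis array, with groups in order of dose rate and a line at the mean of 3 arrays. The 6 nuclear genes drawn were all higher in mid testes. Most nuclear members tested were lower, 10 of 18 in complex I and 18 of 22 in complexes II to V. ND1, COX2 and ATP6 lie above control in all 9 irradiated arrays, and in the nuclear genes Ndufa6, Ndufb5 and Uqcrb the 3 mid arrays lie above all control and low arrays.

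Genes for the cytosolic ribosome split in both directions. Of 63 tested, 35 were higher and 28 lower (median +0.01), and 55 lay within 0.25 of control on the log2 scale, against 65.5% of all probes tested. At an unadjusted p under 0.05, 6 were higher and 0 lower, against 5.37% and 4.54% of all probes. Rps6, a small-subunit protein and a target of S6 kinase, had 327, 334 and 292 in mid testes and 148, 183 and 169 in control testes (+0.93 ± 0.22, adjusted p = 0.144). Rpl6, a large-subunit protein, had 1309, 1266 and 1020.0 in mid testes and 548, 635 and 682 in control testes (+0.94 ± 0.23, adjusted p = 0.164). Rps12 had 6218, 6195 and 6244 in mid testes and 3841, 4208 and 4497 in control testes (+0.58 ± 0.15, adjusted p = 0.195). All 3 genes separated the groups, and Rpl21 and Rpl30 differed by +0.51 and +0.96. All mid arrays lay above all control arrays for 14 of the 63 members, against 9.2% of all probes tested. For 6 members all mid arrays lay below, against 9.5%. Ribosomal protein genes have many near-identical pseudogene copies, so their probes may report more than the named gene.

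Chaperones, which help proteins fold, included 16 members tested, with 9 higher and 7 lower (median +0.05). On 6 of them all mid arrays lay above all control arrays, against 9.2% of all probes, and on 2 all lay below, against 9.5%. The 6 include Hspa4l, which was above the noise limit on no control array. Hspd1, the mitochondrial chaperonin, had 1034, 905 and 833 in mid testes and 665, 683 and 617 in control testes (+0.49 ± 0.20, adjusted p = 0.457). Dnajb6, a co-chaperone, differed by +0.69 ± 0.28 (adjusted p = 0.452). Hspa8, the constitutive HSC70, had 10772, 10185 and 9190.1 in mid testes and 7796, 8028 and 8017 in control testes (+0.34 ± 0.16, adjusted p = 0.547). A further Hspa8 probe differed by +0.40. Of 16 proteasome genes, 5 were higher and 11 lower, and 15 lay within 0.25 of control, against 65.5% of all probes tested. Their median was −0.05, and it was −0.10 with median scaling and −0.11 without normalization.

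For the 12 genes of lowest p among those lower in mid testes, adjusted p values began at 0.103. Histone genes were among them. H4c9, a histone H4 gene, had 452, 467 and 472 in mid testes and 755, 673 and 768 in control testes (−0.66 ± 0.14, adjusted p = 0.126). H2ac19, a histone H2A gene and much brighter, had 16424, 15515 and 15732 in mid testes and 18815, 20064 and 20626 in control testes (−0.32 ± 0.08, adjusted p = 0.171). Each belongs to a family of near-identical genes, so a probe may report several copies.

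Cdca8 encodes borealin of the chromosomal passenger complex, which guides chromosome segregation, and had 569, 558 and 476 in mid testes and 702, 862 and 696 in control testes (−0.49 ± 0.11, adjusted p = 0.138). Btg1, an antiproliferative gene, had 4708, 4371 and 4282 in mid testes and 5801, 5874 and 5486 in control testes (−0.36 ± 0.08, adjusted p = 0.138), and another Btg1 probe differed by −0.20. Both were lower on every mid array than on any control array, as the choice of genes required. Ddx5, an RNA helicase, had 149, 140.4 and 187 in mid testes and 239, 230.2 and 224 in control testes (−0.55 ± 0.12, adjusted p = 0.132). Taf1a, a subunit of the selectivity factor of RNA polymerase I, had 828, 812 and 790.3 in mid testes and 954, 1004 and 1085 in control testes (−0.32 ± 0.08, adjusted p = 0.173).

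Tmed4, a cargo receptor of the early secretory pathway, had 343, 393 and 349 in mid testes and 468, 500.4 and 492 in control testes (−0.43 ± 0.10, adjusted p = 0.15). Its other probes differed by +0.33 and −0.37. The uncharacterised 1700016K19Rik and 1190005I06Rik each differed by −0.46 (adjusted p = 0.112 and 0.143). Klk1b27, a kallikrein, had 202, 301 and 251 in mid testes and 497, 386 and 401 in control testes (−0.78 ± 0.19, adjusted p = 0.173), while its other probe differed by −0.09. Ccdc137 and Ccdc7b were not above the noise limit on any mid array, so only a bound can be given for them below. A further Ccdc137 probe differed by +0.55 ± 0.60.

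Some genes were above the noise limit on all arrays of 1 group and on none of the other. Of 15395 probes tested, this held for 73 on the mid side, 22 of them with a symbol. It held for 68 on the control side, 14 of them with a symbol. These probes were chosen for that split, so the direction of each comes from the choice. On these arrays the fold is then at least the brighter group's mean over the lowest signals that were above noise. That bound does not include the spread between arrays. Among the brightest on the mid side were Cacybp, a partner of the SIAH ubiquitin ligases, at least 1.83-fold higher (adjusted p = 0.195), and Hspa4l, a chaperone that is abundant in testis, at least 1.66-fold higher (adjusted p = 0.379). Hbb-b1, a haemoglobin gene of red cells, was at least 1.75-fold higher (adjusted p = 0.544). Sdhaf3, an assembly factor of complex II, and Zfa-ps were at least 1.65-fold and 1.62-fold higher (adjusted p = 0.356 and 0.539). On the control side, Cxcl16, a chemokine, was at least 1.52-fold lower in mid testes (adjusted p = 0.494) and Ube2e1, a ubiquitin-conjugating enzyme, at least 1.51-fold lower (adjusted p = 0.401). Ccdc7b, Ccdc137 and Ssbp2 were at least 1.37-fold, 1.36-fold and 1.35-fold lower (adjusted p = 0.18, 0.103 and 0.28).

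Medians of the spermatid genes were close to control. Of 38 round spermatid genes listed 10 were tested, with 6 higher and 4 lower (median +0.05). Of 36 elongating spermatid genes listed 6 were tested, with 2 higher and 4 lower (median −0.03). The median of the elongating spermatid genes was −0.10 with median scaling and also without normalization. Pla2g12a, a secreted phospholipase, had 758, 772 and 744 in mid testes and 1058, 916 and 981 in control testes (−0.38 ± 0.12, adjusted p = 0.312). Akap3, an anchoring protein of the sperm tail, had 6405, 5861 and 5678 in mid testes and 7149, 7010.1 and 7133 in control testes (−0.25 ± 0.08, adjusted p = 0.357). Both genes were lower on every mid array than on any control array, which held for 9.5% of all probes tested. In the round spermatid list, 2 of 10 members lay wholly below control and 1 wholly above. In the elongating spermatid list, 1 of 6 lay wholly below and 0 wholly above. Odf2, also an elongating spermatid gene, was at −0.07 ± 0.09, while its other probe differed by +0.56 ± 0.15 (adjusted p = 0.217). Of 12 genes of the tail and axoneme, 7 were higher and 5 lower (median +0.01), and of 3 genes of the piRNA pathway 2 were higher and 1 lower.

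Earlier germ cells were represented by few probes. In spermatocytes, 3 genes were tested, with the testis bromodomain gene Brdt at +0.12 ± 0.10 and the chaperone Clgn at +0.10 ± 0.10. Mei1, needed for meiotic recombination in mice, was above the noise limit at 122, 139.1 and 162 in mid testes and below it at 61.4, 16 and 16 in control testes. It was above noise on no other testis array, so it was tested only through the mid arrays and its direction is fixed by the filter. Of 5 spermatogonial genes with a probe, only Gfra1, the receptor of stem spermatogonia for GDNF, and Zbtb16, a stem cell transcription factor, could be tested. They differed by +0.18 ± 0.22 and −0.70 ± 0.93, and overlapped control, so the germ cells most sensitive to radiation are hardly covered here.

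Somatic markers overlapped control for the most part. Of 5 Sertoli genes, 2 were higher and 3 lower (median −0.03), with Wt1, the Sertoli transcription factor, at +0.12 ± 0.14 and Dhh, a Sertoli signal to Leydig cells, at −0.17 ± 0.12. Of 7 Leydig genes, 2 were higher and 5 lower (median −0.23). Insl3, a Leydig hormone, had 6254, 7783 and 3668 in mid testes and 8397, 6771 and 7668 in control testes (−0.43 ± 0.33, adjusted p = 0.735). Aldh1a1, a retinal dehydrogenase, had 3650.3, 3978 and 2224 in mid testes and 1968, 2033 and 2043 in control testes (+0.66 ± 0.21, adjusted p = 0.307). In both genes array M130 was the lowest of the mid arrays. Without array M130 the Leydig median was −0.06. Of 5 macrophage genes 1 was higher and 4 lower (median −0.05). The 1 epididymal gene with a probe was not above noise often enough to be tested. The 3 endothelial genes and the 2 genes each of peritubular muscle and fat gave 0 with an unadjusted p under 0.05. That is near the 9.91% of all probes tested, and most of these probes were dim. Hba-a1, a red cell gene, was at 2128, 11577 and 1004 in mid testes and 2473, 2713 and 3969.9 in control testes, so array M129 stood apart in it. The part of blood in the other results of that array was not tested.

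**Figure D4:**
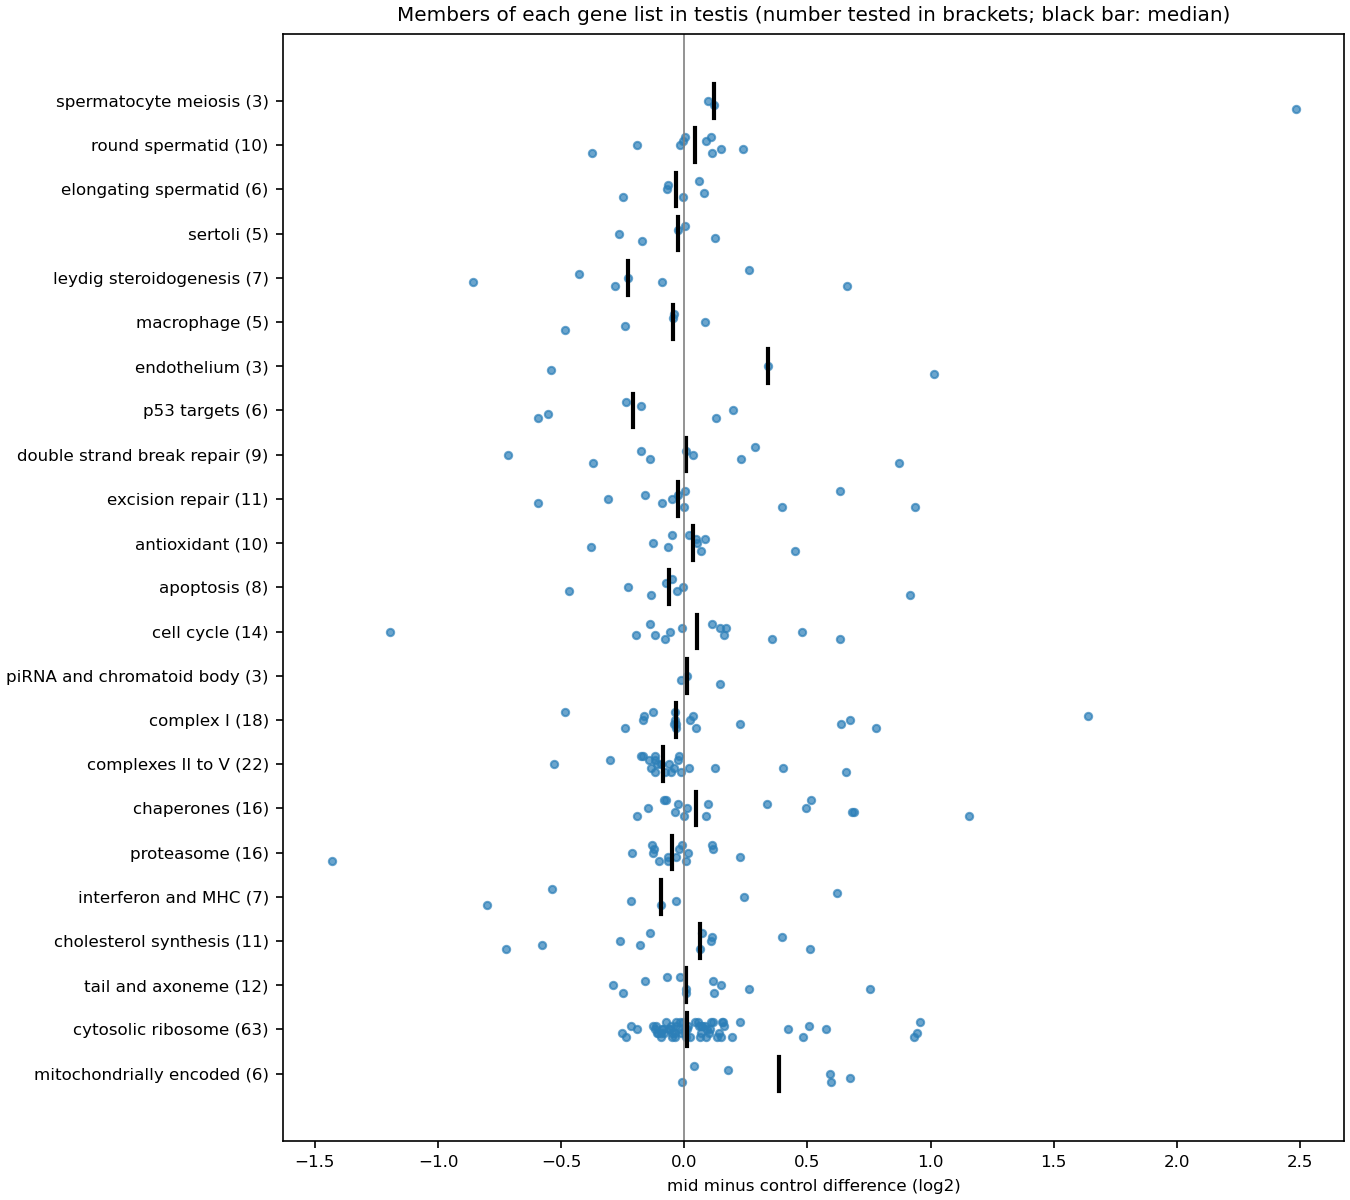
Difference between mid and control testes (log2) for each tested member of the gene lists, a point per gene at its brightest probe, with the median as a black bar and the number tested in brackets. Most medians lie near 0, and the spread within lists such as the cytosolic ribosome, from −0.25 to +0.96, is wider than the shift of their medians.

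Genes of the response to DNA damage and cell death were next, since radiation breaks DNA and activates p53, a transcription factor that halts or kills damaged cells. Of 6 p53 targets tested, 2 were higher and 4 lower (median −0.21). At an unadjusted p under 0.05 there were 0, against 9.91% of all probes tested, and 0 among so few is near that share. Xpc, which recognises bulky lesions, had 127, 113 and 122 in mid testes and 155, 219 and 178 in control testes (−0.60 ± 0.27, adjusted p = 0.509). Ccng1, a cyclin induced by p53, differed by −0.55 ± 0.41. Both were dim: Xpc was above the noise limit on 2 of 3 mid arrays, and Ccng1 on 1 of 3 mid and 2 of 3 control arrays. They were named for the lowest p in the list and do not stand for all 6 members. Without array M130 or without control array C109 the median of this list was −0.08 or −0.07. Of 9 genes of double-strand break repair, 5 were higher and 4 lower (median +0.01). Again 0 had an unadjusted p under 0.05, which is also near the 9.91% of all probes tested.

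Of 11 excision repair genes, 4 were higher and 7 lower (median −0.02). Ercc8, which acts in repair of transcribed genes, had 466, 589.7 and 600.5 in mid testes and 406, 447 and 401 in control testes (+0.40 ± 0.11, adjusted p = 0.252). Apoptosis genes, 8 in all, were higher for 1 and lower for 7 (median −0.06). Birc2, an inhibitor of apoptosis, had 302, 237 and 244 in mid testes and 139.7, 169 and 110.4 in control testes (+0.92 ± 0.20, adjusted p = 0.137). The survival genes Bcl2l1 (BCL-XL) and Bcl2l2 (BCL-W) differed by −0.47 ± 0.15 and −0.23 ± 0.10 (adjusted p = 0.314 and 0.489), with overlap between the groups. The 14 cell cycle genes split evenly, 7 higher and 7 lower (median +0.05).

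Among 10 antioxidant genes, 6 were higher and 4 lower (median +0.03). Prdx6, a peroxiredoxin, had 931, 764 and 828 in mid testes and 618, 581 and 643 in control testes (+0.45 ± 0.13, adjusted p = 0.241), while its other probe differed by −0.24. In cholesterol synthesis, 6 of 11 genes were higher and 5 lower (median +0.06, and −0.09 without mid array M129). Srebf2, the transcription factor of the pathway, differed by +0.51 ± 0.18 (adjusted p = 0.397). The enzyme Fdps differed by −0.26 ± 0.11 (adjusted p = 0.467). Interferon and MHC genes were higher for 2 of 7 and lower for 5 (median −0.09).

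The mid dose rate can also be set beside the others, which share the same control arrays. Over control, Trip12 differed by +0.44 in low, +1.20 in mid and +0.59 in high testes. On the high arrays H132, H134 and H139 it had 900.0, 605 and 622, so array H132 came closest to the mid arrays. Ppp4r1 differed by +0.05 at low, +0.84 at mid and +0.31 at high, with array H132 at 1174 against 758 and 825 on the other high arrays. Rpl6 and Ndufa6 showed the same feature, with array H132 at 1366 and 1030.3 against 790.1 and 772, and 683 and 689. ND1 did not: it differed by +0.30 at low, +0.60 at mid and +0.77 at high, with 17595, 17339 and 18559.6 on the high arrays. ATP6 differed by +0.21 at low, +0.59 at mid and +0.57 at high, with array H132 the lowest high array at 25606. COX2 differed by +0.31, +0.67 and +0.62, with array H132 at 11447 against 9432 and 10019.6 on the other high arrays.

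A contrast of mid against the mean of the low and high groups uses no control array. No probe passed an adjusted p of 0.05 (0 of 15395, 0%), the smallest being 0.16, and 1256 had an unadjusted p under 0.05 (8.16%). For Trip12 the difference was +0.69 and for Ppp4r1 +0.66. All 12 of the higher genes above and all 12 of the lower ones lay farther from control at mid than the mean of low and high did. That count is a description, since the genes were chosen for their mid values.

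Kidneys of the same dose rate gave a comparison with arrays and controls of its own. Over 10766 probes tested in both tissues, the mid differences in testis and kidney correlated at r = 0.137 (Pearson) and 0.124 (Spearman). Genes are not independent replicates, and the labels do not say whether both tissues came from the same mice. Of 500 probes higher in mid testes at an unadjusted p under 0.05, 374 (74.8%) were also higher in mid kidneys, against 46.8% of all 10766 probes. Of 473 probes lower in mid testes, 45.2% were higher in mid kidneys, which is close to the share of all probes. With median scaling in place of quantile normalization these shares were 81.8% of the higher probes, 58.9% of the lower ones and 60.4% of all probes. Without normalization they were 77.4%, 43.5% and 48.8%.

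Kidney itself had 78 probes with an adjusted p under 0.05 in this fit (0.725%), 54 of them higher, and 21 of those 54 were among the 500. Trip12 differed by +1.57 in kidney (adjusted p = 3.04e-06), Cir1 by +0.94 (adjusted p = 0.0052) and COX2 by +0.63 (adjusted p = 0.0232). Uqcrb differed by +0.81 in kidney (adjusted p = 0.0219). Of the 12 higher genes, 9 were tested in kidney and all 9 had the same sign there, although Fasn was at +0.01. Of the 12 lower genes, 8 were tested and 3 had the same sign.

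Control beads on the kidney arrays differed between dose groups. The signal of low-stringency mismatch probes was 8.90%, 8.54% and 8.64% of the matched probes on the mid kidney arrays, against 6.82%, 5.67% and 5.89% on the control kidney arrays. The share was 5.10% to 6.09% on the low kidney arrays and 7.37% to 8.93% on the high ones. The mid and control ranges did not overlap, and their part in the shared direction of testis and kidney was not tested. Control beads of the testis arrays were not analysed here.

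**Figure D5:**
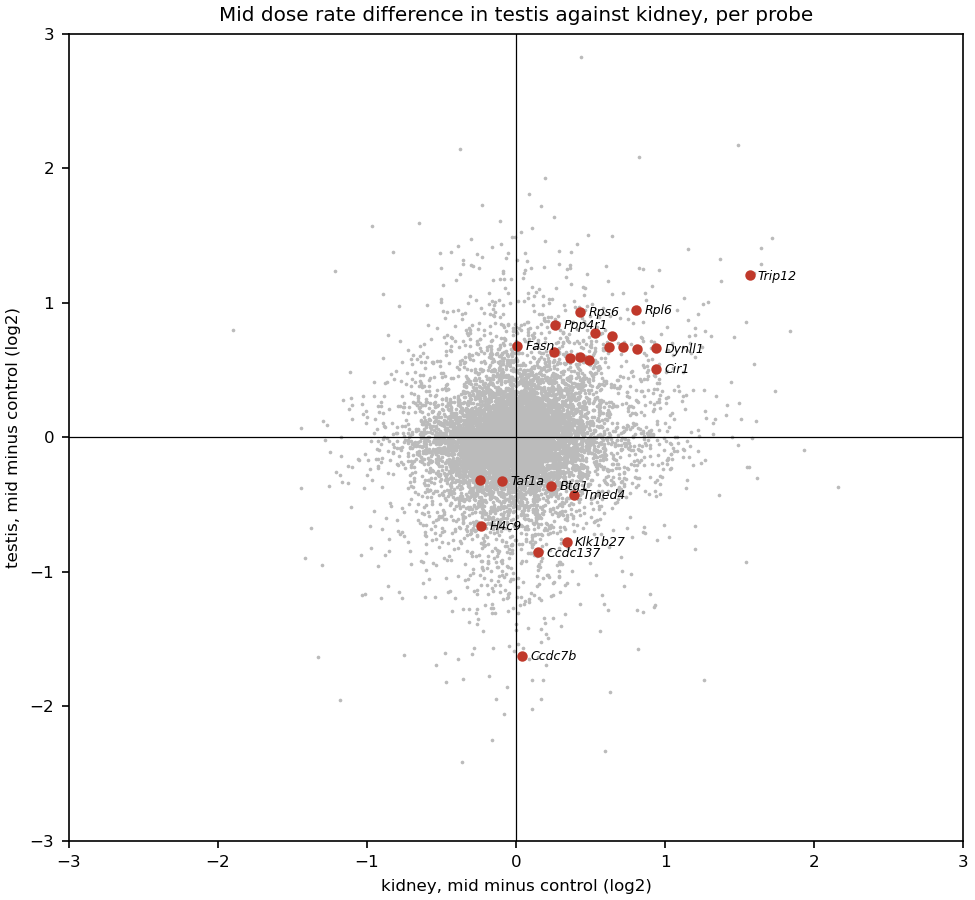
Difference between mid and control (log2) per probe in kidney (horizontal) and testis (vertical) for 10766 probes, grey. Red points are the 17 genes of lowest p that were tested in kidney and 7 nuclear respiratory chain and ribosomal genes, with the uncrowded ones labelled. 2 probes fall outside the plotted range of 3. The red points that are higher in testis lie at or right of 0 in kidney, with Trip12 at +1.57 and +1.20. The 7 list genes drawn were all higher in testis. Other genes named in the text are not drawn, and of these Hspa8 and Srebf2 were higher in testis and lower in kidney.

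The difference between the tissues was tested as an interaction over the same 10766 probes. One probe without a gene symbol (1 of 10766, 0.00929%) passed an adjusted p of 0.05, and 850 had an unadjusted p under 0.05 (7.9%). The probe that passed met the kidney noise filter only through the mid kidney arrays, as described below. For Trip12 the testis difference minus the kidney difference was −0.36 (adjusted p = 0.659), and for Fasn it was +0.67 (adjusted p = 0.737). A p that misses the threshold does not show that the tissues responded alike.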

How the data were processed

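Signals were read from the series' deposited value table as linear intensity, background-subtracted so that some lie below 0. The normalization of the testis values by the authors is not given here by any label or header. Kidney arrays were rank-invariant normalized in Illumina BeadStudio 1.5.0.34, per the file headers, and the deposited kidney table held the same intensities (largest difference 0). Another column of it, of unit other, deposited by the authors, gives target identifiers. A zero-padded number in them was taken as an NCBI gene ID and matched to RefSeq (GRCm38.p6). Of 11897 such numbers 82.6% matched, which named 9832 probes with 8127 symbols, 1500 of them with more than 1 probe. Its control-bead signals were used only for the mismatch share, and 47 other per-sample columns were not used.

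The 12 testis arrays were quantile normalized on the linear scale, floored at 16 and put on a log2 scale. The noise limit was percentile 99 of the values below 0, mirrored around 0. All 12 arrays entered 1 fit in limma 3.58.1 (R 4.3.3, lmFit and eBayes, two-sided) without covariates, with Benjamini-Hochberg adjustment over 15395 probes and a threshold of 0.05. Errors beside log2 differences are the limma SE. The tissue contrast used all 24 arrays, normalized within tissue, over 10766 probes, and treats them as independent. The number of arrays limits precision. Scripts were tested on simulated data.

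Named genes were the 12 per direction with the lowest p among non-overlapping probes with 1 symbol and above noise on all 3 arrays of a group, the 4 of lowest p in each of the lists, the 5 brightest per side above noise in 1 group only, and the 10 brightest. List members and other values beyond this rule were named after their values were seen. Some genes are not reported here. Lists used 1 probe per gene, the brightest. The comparison and lists were chosen with earlier results of these data known. Alternatives varied the floor, normalization, filter, fit, weights and arrays.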

Additional observations from a re-analysis of the deposited data

Results flagged for a closer look

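Probe 105340647, which has no gene symbol, was flagged because its mid minus control difference was opposite in the tissues, with an interaction of −1.76 ± 0.19 on the log2 scale (limma SE, n = 3 per group, adjusted p = 1.784e-04). In testis it had signals of 155, 151 and 177 at the mid dose rate and 294, 234 and 280.3 in controls, a difference of −0.74 ± 0.13 in this fit (adjusted p = 0.031). In kidney it had 62, 52 and 48.1 at the mid dose rate and 28.1, 28.7 and 23 in controls, a difference of +1.02 ± 0.13 (adjusted p = 0.00112). It was above the kidney noise limit, 41.6 to 59 signal units, on all 3 mid kidney arrays and on no control kidney array. Of the low and high kidney arrays it was above the limit only on H1. It thus met the kidney filter only through the mid arrays, so its direction in kidney is fixed by the filter. With a floor of 64, which no kidney signal of this probe reached, the interaction was −0.74 and did not pass. The interaction also did not pass with a trended, robust spread estimate.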

How the results depend on the processing

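Of 3101 values of named genes under 24 alternatives, 3050 kept their direction and 51 turned sign, and the 24 genes chosen for their low p kept theirs throughout. No probe passed with a floor of 4, median scaling, no normalization, the floor set before normalization, or only the 6 compared arrays. For mid minus control, the share of tested probes that passed was 0.130% (20 probes) with a floor of 64, 0.0954% (44) with no filter, 0.0625% (18) with a filter at the array median, 1.36% (209) with a trended robust spread and 0.494% (76) with array weights. Among probes above noise on all 12 arrays it was 1.33% of 9939, with 14 of those that passed lower and the rest higher. It was 0.00659% (1 probe, Trip12) without both high arrays that stand apart, a setting chosen after seeing the data. By an unadjusted p under 0.05 and a 1.5-fold difference, 4.15% (639) passed. Leaving out 1 array gave 0 to 0.157%: 24 probes without high array H132, 1 without mid array M129, 1 without mid array M130 and 0 otherwise. For mid minus the mean of low and high, 6 passed with a floor of 64, 35 with no filter and 37 with a trended robust spread, and omissions gave 0 to 2, with 2 without high array H132 and 1 without mid array M129. For the tissue difference, 3 passed with a floor of 64, 90 with no filter and 0 with a trended robust spread, and omissions gave 1 to 3. The causes were not tested. No paired analysis was possible because the testis groups share no replicate numbers. Between arrays, depth is set by signal over noise, and dim probes near 94.5 to 147 units carry little information. Signs turned only in genes near 0 or near noise. With a floor of 64, Fabp4 was at −0.18. With the floor before normalization, Fabp4 was at −0.050. With median scaling, Tcp11 was at −0.0100, Mov10l1 −0.023, Prm2 +0.034, Rpl41 +0.040 and Ybx1 +0.0088. With no normalization, Tcp11 was at −0.017, Mov10l1 −0.030, Prm2 +0.027, Rpl41 +0.033, Ybx1 +0.0018 and ND5 −0.0054. With array weights, Hba-a1 was at +0.37, Mov10l1 −0.031, Prm2 +0.0010 and ND4 +0.0095. Without both high arrays that stand apart, Fabp4 was at −0.011 and Rpl41 +0.00067. Over omissions the range was −0.24 to +0.0057 for Mylk, −0.14 to +0.14 for Mov10l1, −0.015 to +0.0091 for Prm2, −0.042 to +0.036 for ND4, −0.22 to +0.43 for C1qa, −0.19 to +0.088 for C1qb, −0.042 to +0.0092 for Tdrd6, −0.031 to +0.013 for Rpl41 and −0.11 to +0.16 for ND5. For the rest it was −1.03 to +0.73 for Hba-a1, −0.88 to +0.55 for Fabp4, −0.78 to +0.085 for Lpl, −0.023 to +0.35 for Gfra1, −0.086 to +0.0049 for Aard and −0.64 to +0.047 for Trf.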
